A study of Rattus norvegicus with 60 samples.

Results

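The genes described here code for the ionotropic and metabotropic glutamate receptors and for the scaffold proteins that hold them at the postsynaptic membrane. They were chosen by name, from the probes of the array whose symbol was Gria, Grin, Grik, Grid, Grm, Homer, Dlg, Dlgap or Shank followed by a digit, with Grik4 and Homer3 left out. The genes described had 34 of the 22523 probes and 30 of the 21563 distinct symbols, each gene read at its brightest probe, and 21 of the 30 genes had a detection p under 0.01 on 4 or more arrays of at least 1 region. RNA came from hippocampi of Fischer 344 x Brown Norway F1-hybrid rats (F344BN) and was hybridised to Illumina bead arrays, on which each probe is read as the mean brightness of many beads. The rats were adults of 12 months or animals of 24 months that the labels call aged intact or aged impaired, without saying which test made that split. CA1, CA3 and the dentate gyrus (DG) each had 4 arrays per group. For whole hippocampus there were 6 arrays of adults and 9 of each aged group, which made 60 arrays in all. Nothing ties the arrays to separate animals, so the p-values below measure only the spread between these samples.

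Glutamate opens the AMPA, NMDA and kainate receptors, which are ion channels built of several subunits, and activates the metabotropic receptors, which signal through G proteins. At the postsynaptic density the Dlg proteins bind receptor tails, the Dlgap proteins link Dlg to Shank, and Shank binds Homer, which in turn binds the group I metabotropic receptors. In the hippocampus these proteins carry transmission along the path from dentate granule cells over their mossy fibre axons to CA3 pyramidal cells and on to CA1.

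Most defining markers went with the labelled subregions. Of the tested CA1, CA3 and DG markers, 11 of 11 had their highest mean in their own subregion, and 10 passed the test against both other subregions. Prss35, a CA3 marker, did not pass, at 9.34 in CA3 and 9.33 in DG. The markers with a probe that were not tested were Cdh24, Lct and Tdo2. Cdh24, a CA3 marker, was detected in CA1 and DG but on no CA3 array. The dentate markers Lct and Tdo2 were detected on no array. Each subregion was run on a slide of its own, so subregion and slide cannot be told apart. Within those slides the 3 age groups also lay in separate blocks of positions, so group and position cannot be told apart either; the whole-hippocampus groups were mixed over 2 slides. On 59 arrays between 40.64% and 47.21% of probes were detected, and on CA1 adult replicate 4 only 22.22% were.

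CA1 adult replicate 4 stood apart in the glutamate receptor genes as well. Its value was the lowest of the 12 CA1 arrays for 11 of the 21 detected genes, the highest for 6 and between the others for 4, and 8 of the genes were not detected on it. Over all probes tested in CA1 it was the lowest or the highest for 88.4%. For example, Shank1 read 10.38 on it against 7.20 to 8.38 on the other 11 CA1 arrays, and Grm7 read 5.02 against 7.18 to 7.73 (log2 intensity). For the subregions and for age and impairment in CA1, counts of called genes are therefore given with and without this array, as are many of the single values that it moved.

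**Figure D1:**
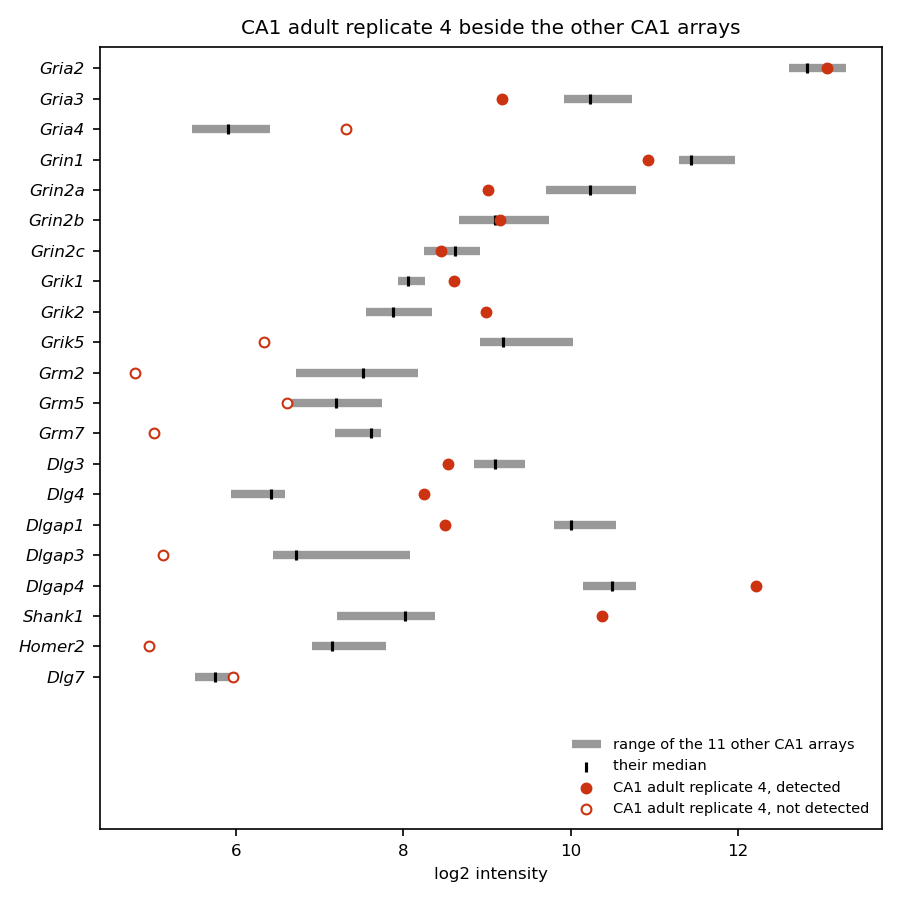
Log2 intensity (horizontal axis) of the 21 detected genes on CA1 adult replicate 4 (red, open where not detected) beside the range (grey bar) and median (black tick) of the other 11 CA1 arrays. The red point lies outside the grey bar for 17 of the genes, to the left for 11 and to the right for 6; levels of different genes are not comparable.

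The 21 detected genes covered most receptor classes. All 3 AMPA subunits with a probe were detected (Gria2, Gria3 and Gria4), as were 4 of 6 NMDA subunits (Grin1, Grin2a, Grin2b and Grin2c), 3 of 4 kainate subunits (Grik1, Grik2 and Grik5) and 3 of 5 metabotropic receptors (Grm2, Grm5 and Grm7). Among the scaffolds, Dlg3, Dlg4, Dlgap1, Dlgap3, Dlgap4, Shank1 and Homer2 passed. The symbol Dlg7 also matched the rule, but its current symbol is Dlgap5, a protein of the mitotic spindle and no synaptic scaffold. The 9 genes below the limit included Dlg5, Grid1, Grik3, Grin2d, Grin3b, Grm4, Grm8 and Shank2, and 5 of the 9 had no detection on any array. Gria4 missed the limit in CA3 and Dlg7 missed it in DG, which left 20 genes each in CA3 and DG and 21 each in CA1 and whole hippocampus; 12 were detected on all 60 arrays. Just inside the limit were Grm2 in CA3, detected on 5 of 12 arrays, and Dlg7 in CA1 on 8; just outside were Gria4 in CA3 on 3 of 12 and Grin3b in CA1 and DG on 3 of 12 each.

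The widest differences lay between the subregions. Grm2, Grm7, Grik2 and Grik5 had their highest mean in DG, whereas Grik1, Shank1 and Homer2 had theirs in CA1. A gene was called when its adjusted p was under 0.05 over the 10654 probes detected in the subregions. Between CA1 and CA3, 10 of 21 genes were called, against 30% of all probes. Of these, 9 were higher in CA1 (14% of probes) and 1 was higher in CA3 (16%). Between CA1 and DG, 13 were called, against 44.9% of probes, 6 higher in CA1 (20.5% of probes) and 7 higher in DG (24.5%). Between CA3 and DG, 13 were called, against 39.9% of probes, 2 higher in CA3 and 11 higher in DG. The share of all probes called higher in DG than in CA3 was 19.9%, and the share called higher in CA3 was 20%. Counts between subregions out of 21 include Gria4, below the detection limit in CA3, and Dlg7, below it in DG. For the 19 genes detected in all 3 subregions the counts in these pairs were 9, 12 and 11. Of those, 8, 5 and 1 were higher in the first-named subregion and 1, 7 and 10 in the second.

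Without CA1 adult replicate 4 the standard errors were smaller and more genes were called. Between CA1 and CA3 the count was then 16 of 21, 14 of them higher in CA1, against 43.7% of probes in either direction. Grik2, Grin2a, Grm5, Dlgap1, Dlgap3 and Homer2 were the 6 genes added. Between CA1 and DG it was 14, against 54.9% of probes, and between CA3 and DG 18, against 59.1%, with Grik5, Grm7, Dlgap1, Dlgap3 and Homer2 added; no call was lost in any pair.

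**Figure D2:**
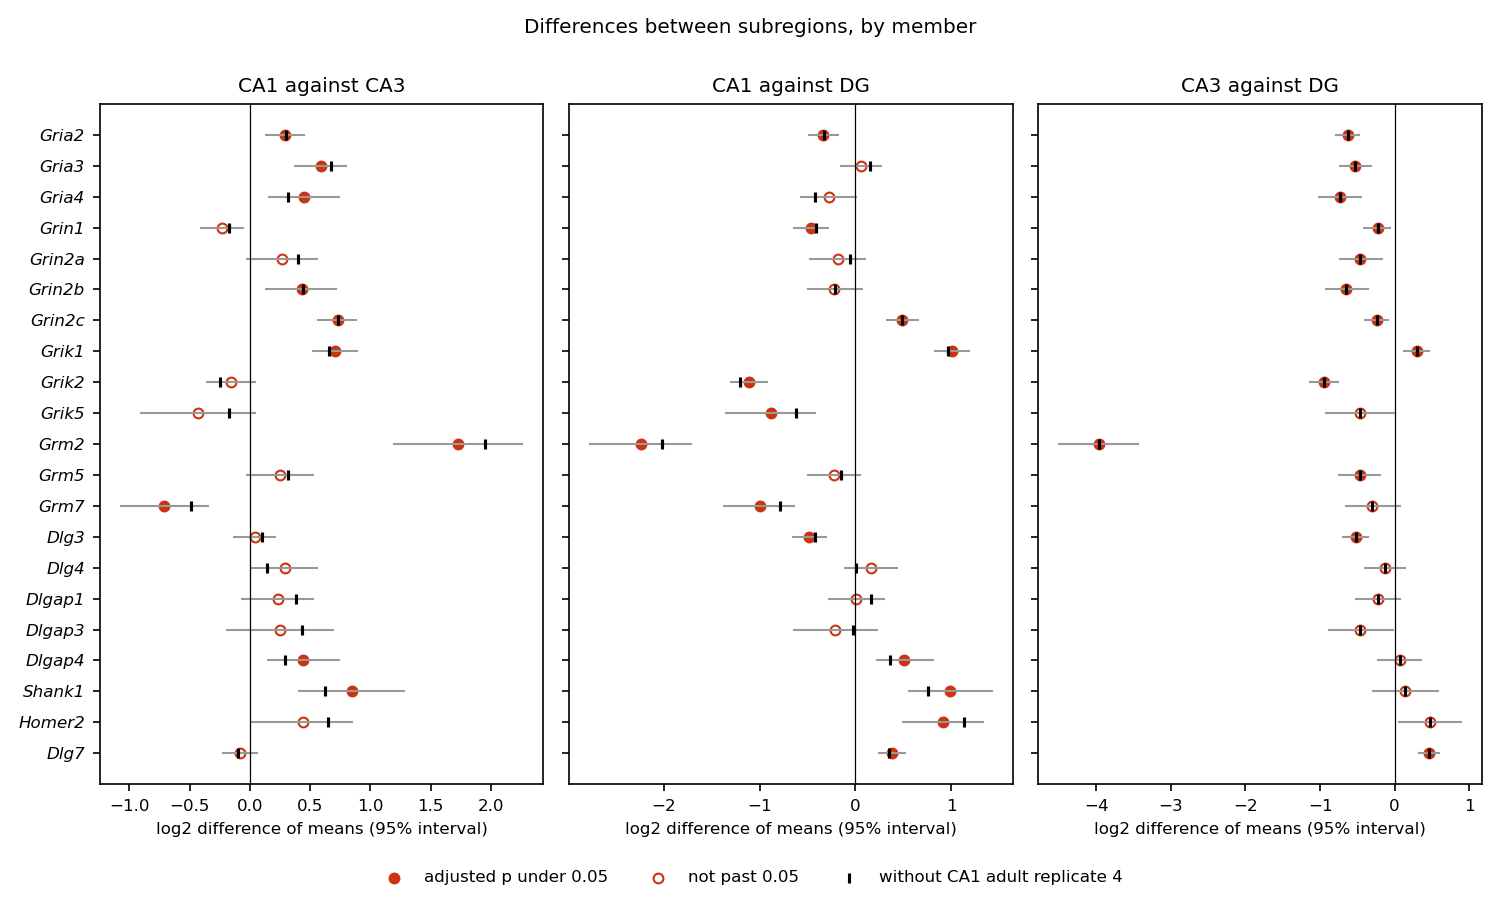
Difference between the means of 2 subregions on the log2 scale (horizontal axis, with its own range in each panel), by gene; circles are filled where the adjusted p was under 0.05, bars are 95% intervals and black ticks give the value without CA1 adult replicate 4. Between CA3 and DG 16 of the 21 genes lie left of 0, Grm2 farthest at -3.97.

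Of the 19 genes detected in all 3 subregions, 11 had their highest mean in DG, 8 in CA1 and 0 in CA3, where the shares of all probes detected in the 3 subregions were 37.4%, 30.4% and 32.2%. The lowest mean was in CA3 for 11 genes, against 27% of probes, and these counts were the same without CA1 adult replicate 4. Being called above both other subregions was found for 5 genes in DG (Grm2, Grik2, Gria2, Grin1 and Dlg3), against 11.8% of probes, for 4 in CA1 (Grik1, Grin2c, Dlgap4 and Shank1), against 6.4%, and for 0 in CA3, against 6.09%. Below both others were 5 genes in CA3 (Grm2, Gria2, Gria3, Grin2b and Grin2c), against 5.25% of probes, 1 in CA1 (Grm7), against 7.17%, and 1 in DG (Grik1), against 11.8%. Leaving out CA1 adult replicate 4 added Grm7 and Grik5 above both others in DG (7 genes, 17.7% of probes) and Homer2 in CA1 (5 genes, 10.5%), with 0 genes in CA3 (11.5%). Below both others, Dlgap1, Dlgap3, Grin2a and Grm5 were then added in CA3 (9 genes, 10.8% of probes), Grik2 in CA1 (2 genes, 9.64%) and Homer2 in DG (2 genes, 17.8%). Dlg4, Dlgap1 and Dlgap3 were called in none of the 3 pairs with all arrays. Ranges over the 12 arrays were without overlap for 2 genes between CA1 and CA3 (Grik1 and Grm7, against 4.8% of probes), for 3 between CA1 and DG (Grik1, Grm2 and Grm7, against 6.23%) and for 2 between CA3 and DG (Grik2 and Grm2, against 12.3%).

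Cell type markers also differed between the subregions, and their part in the receptor differences was not tested. Of 12 general neuronal markers, 10 were lower in CA1 than in CA3, with a median difference of -0.64 over the list. Without CA1 adult replicate 4 the same count of 10 were lower and 1 was higher, with a median of -0.55. CA1 was called lower than DG for Nefl, Syn1, Snap25 and Eno2. CA3 was called higher than DG for Nefm, Nefh, Stmn2, Thy1 and Tubb3 and lower for Syn1. Without CA1 adult replicate 4, 10 of the 12 markers were higher in CA3 than in DG and 2 were lower, with a median of 0.30. Summed over the list, the neuronal markers reached 18800 to 53700 intensity units on CA1 arrays (36700 to 53700 without CA1 adult replicate 4), 55800 to 66500 on CA3 arrays and 44600 to 62700 on DG arrays. All 6 oligodendrocyte markers were higher in CA3 than in DG, with a median of 1.31, and higher in CA1 than in DG, with a median of 1.15 (1.28 without CA1 adult replicate 4); their sum was 11100 to 19900 in CA1 (14500 to 19900 without it), 16300 to 21600 in CA3 and 6700 to 9930 in DG. Of 6 interneuron markers, 5 were higher in CA1 than in DG (sums of 5770 to 9910, or 7880 to 9910 without CA1 adult replicate 4, and 5410 to 8080). Astrocyte markers were called in 3 of 6 cases and microglial markers in 5 of 6, all higher in CA1 than in DG. Without that array the counts were 5 and 5. Slc1a3 and Gja1 of the astrocyte list were also called higher in CA1 than in CA3, and without that array 5 of 6 were. The astrocyte sum was 37000 to 62900 in CA1 (48500 to 62900 without that array), 38000 to 46400 in CA3 and 38300 to 45700 in DG. Over all probes, 30% were called for CA1 against CA3, 44.9% for CA1 against DG and 39.9% for CA3 against DG. Without that array these shares were 43.7%, 54.9% and 59.1%. In such tissue, fewer cells of a type and less RNA per cell cannot be told apart.

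Grm2, a G protein-coupled autoreceptor of the mossy fibres, had the widest gap of all 21 genes. Its log2 intensity was 8.91 to 9.90 in DG (median 9.61, n = 12), 4.79 to 8.18 in CA1 (median 7.50, n = 12) and 4.77 to 6.93 in CA3 (median 5.61, n = 12). Every DG array lay above every CA1 and every CA3 array. The whole-hippocampus mean of 8.74 lay between those of DG and CA1, and its range of 8.40 to 9.00 overlapped that of DG. The DG mean exceeded the CA3 mean by 3.97 ± 0.26 (SE) on the log2 scale in the fit, with an adjusted p of 1.14e-13. Since 7 of the 12 CA3 arrays did not detect Grm2, the CA3 side was also raised, per array, to the lowest signal among detected probes, and DG was then at least 12.3-fold higher than CA3. The DG mean exceeded the CA1 mean by 2.24 ± 0.26, 4.72-fold (adjusted p = 2.92e-08), or by 2.02 without CA1 adult replicate 4. In the fit CA1 exceeded CA3 by 1.73 ± 0.26 (adjusted p = 6.14e-06), or by 1.95 without that array, and by at least 2.61-fold with the CA3 side raised in the same way.

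In CA3, Grm2 was detected on 5 of 12 arrays. The adult CA3 values were 4.85, 5.00, 5.14 and 6.93, the aged intact values 4.77, 5.60, 6.12 and 6.41, and the aged impaired values 4.94, 5.63, 5.73 and 5.96. The highest, CA3 adult replicate 1, was also the only CA3 array on which Prox1, a transcription factor that marks dentate granule cells, was detected, at 5.76 against a DG mean of 7.05. On CA3 aged intact replicate 1 Prox1 read slightly higher, at 5.78, without being detected, and Grm2 read 6.41. Dsp, another granule cell marker, was not detected on any CA3 array.

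Grm5 is a group I receptor, which couples to phospholipase C and binds Homer. For Grm5 a single pair was called with all arrays: DG exceeded CA3 by 0.47 ± 0.14 (adjusted p = 0.00665), with means of 7.37 in DG, 7.15 in CA1 and 6.90 in CA3. Without CA1 adult replicate 4, CA1 was also called above CA3, by 0.32 (adjusted p = 0.0386).

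Grm7, a group III receptor of the presynaptic active zone, was lowest in CA1. It read 5.02 to 7.73 in CA1 (median 7.60), 7.79 to 8.36 in CA3 (median 8.06) and 7.85 to 8.59 in DG (median 8.36). All 12 CA1 arrays lay below all CA3 and DG arrays. The difference from DG was -1.0 ± 0.18 (adjusted p = 4.17e-05) and from CA3 -0.71 ± 0.18 (adjusted p = 0.00353). Without CA1 adult replicate 4 these values were -0.79 and -0.49, both still past the threshold, and the difference between CA3 and DG, -0.30, passed it as well (adjusted p = 0.00145).

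**Figure D3:**
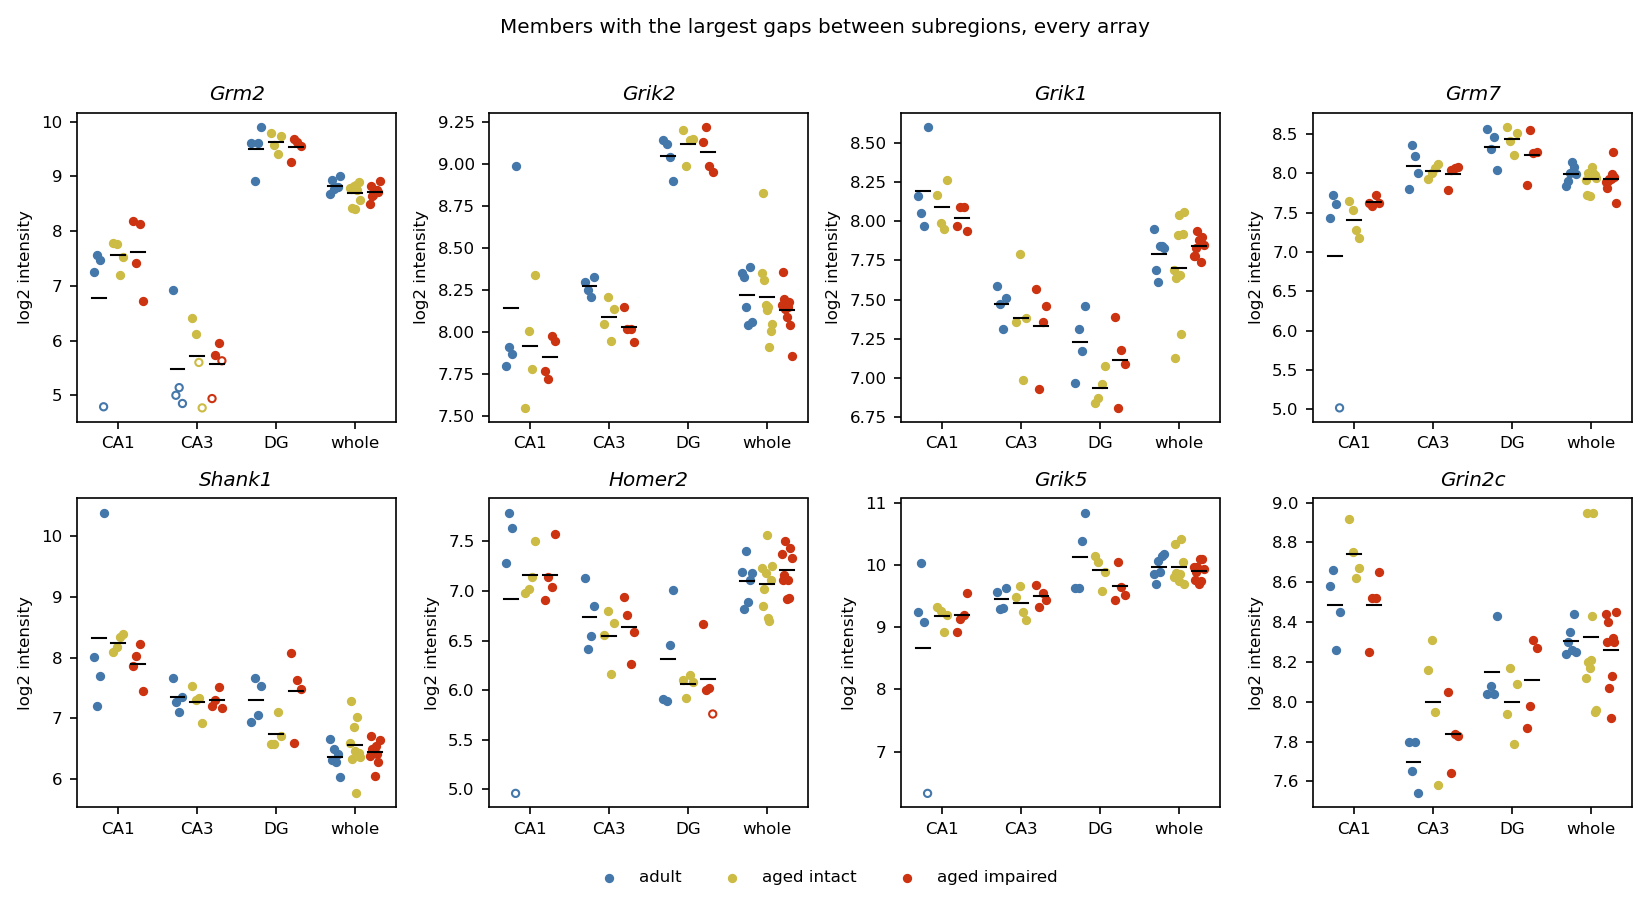
Log2 intensity of the 8 genes with the largest gaps between subregion means, 1 point per array (open where not detected), by region and coloured by age group; black lines are group means. Grm2 in DG, at 8.91 to 9.90, lies clear of CA1 and CA3, and Grik1 in CA1, at 7.94 to 8.60, lies clear of CA3 and DG.

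The kainate subunits split between subregions. Grik1, a subunit known from hippocampal interneurons, read 7.94 to 8.60 in CA1 (median 8.07), 6.93 to 7.79 in CA3 (median 7.42) and 6.81 to 7.46 in DG (median 7.08). Grik2, the subunit of mossy fibre synapses, read 8.90 to 9.22 in DG (median 9.13), 7.94 to 8.33 in CA3 (median 8.14) and 7.55 to 8.99 in CA1 (median 7.89). Grik1 in CA1 overlapped no CA3 or DG array, and Grik2 in DG overlapped no CA3 array and 1 CA1 array, adult replicate 4.

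Grik1 was higher in CA1 than in DG by 1.01 ± 0.09, 2.01-fold (adjusted p = 1.1e-10), and higher than in CA3 by 0.71 ± 0.09 (adjusted p = 2.92e-07). Grik2 was higher in DG than in CA1 by 1.11 ± 0.10, 2.16-fold (adjusted p = 8.89e-11), and higher than in CA3 by 0.95 ± 0.10 (adjusted p = 2.47e-09). With CA1 adult replicate 4 left out, CA1 exceeded DG by 0.96 and CA3 by 0.66 for Grik1, and DG exceeded CA1 by 1.20 for Grik2. Grik5, which joins Grik1 or Grik2 in receptors of high affinity, shared the order of Grik2. It read 9.44 to 10.84 in DG (median 9.76), 9.12 to 9.67 in CA3 (median 9.46) and 6.33 to 10.03 in CA1 (median 9.19), and the ranges overlapped. DG exceeded CA1 by 0.88 ± 0.23 (adjusted p = 0.00284), or by 0.62 without CA1 adult replicate 4.

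The AMPA subunits were all lowest in CA3. Gria2, the subunit that makes AMPA channels nearly impermeable to calcium once its message is edited, had means of 13.29 in DG, 12.95 in CA1 and 12.65 in CA3, and all 3 pairs were called. Gria3 had means of 10.18 in CA1, 10.12 in DG and 9.59 in CA3. CA1 and DG differed by 0.06 (95% interval -0.16 to 0.28), and CA3 was below both, by 0.59 ± 0.11 and 0.53 ± 0.11; without CA1 adult replicate 4, CA1 exceeded DG by 0.15 (adjusted p = 0.145) and CA3 by 0.67. Gria4 was near the detection limit, at 6.30 in DG, 6.02 in CA1 and 5.56 in CA3, where 3 of 12 arrays detected it.

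Among the NMDA subunits, Grin1, which every NMDA receptor contains, was highest in DG, by 0.46 ± 0.09 over CA1 (adjusted p = 0.000104; 0.41 without CA1 adult replicate 4) and by 0.23 ± 0.09 over CA3 (adjusted p = 0.0393). Grin2a and Grin2b, the main glutamate-binding subunits of the forebrain, were higher in DG than in CA3 by 0.46 ± 0.15 and 0.65 ± 0.14. Grin2c, the subunit best known from cerebellar granule cells, was highest in CA1. It read 8.25 to 8.92 in CA1 (median 8.60), 7.79 to 8.43 in DG (median 8.06) and 7.54 to 8.31 in CA3 (median 7.82), with 12 arrays each, and the ranges overlapped. Its CA1 mean of 8.57 exceeded CA3 by 0.73 ± 0.08 (adjusted p = 3.22e-08) and DG by 0.49 ± 0.08 (adjusted p = 1.49e-05). All 12 CA1 arrays lay above the CA3 mean and above the DG mean of Grin2c. Between CA3 and DG the difference was -0.24 ± 0.08 (adjusted p = 0.0219), and without CA3 aged intact replicate 4 it was -0.19 and lost its call (adjusted p = 0.0549).

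The scaffolds also differed in where they were highest. Shank1, which ties Dlgap proteins to Homer, read 7.20 to 10.38 in CA1 (median 8.06), 6.92 to 7.66 in CA3 (median 7.30) and 6.58 to 8.08 in DG (median 7.07). Its CA1 mean exceeded CA3 by 0.85 ± 0.22 (adjusted p = 0.0034) and DG by 0.99 ± 0.22 (adjusted p = 0.000439), and without CA1 adult replicate 4 by 0.62 and 0.76. The ranges overlapped in each pair. Homer2 read 4.96 to 7.79 in CA1 (median 7.14), 6.16 to 7.13 in CA3 (median 6.63) and 5.76 to 7.01 in DG (median 6.05). CA1 exceeded DG by 0.91 ± 0.21 (adjusted p = 0.000649). Homer2 was lowest on CA1 adult replicate 4, and without that array CA1 exceeded DG by 1.13 and CA3 by 0.65 (adjusted p = 9.51e-05), a pair not called with it.

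Dlgap4 was higher in CA1 than in CA3 by 0.44 ± 0.15 and than in DG by 0.51 ± 0.15. It read 12.22 on CA1 adult replicate 4 and 10.15 to 10.78 on the other CA1 arrays, and without that array the differences were 0.29 and 0.36, both still called. Dlg3, a scaffold of NMDA receptors, was highest in DG, by 0.48 ± 0.09 over CA1 (adjusted p = 4.25e-05; 0.42 without CA1 adult replicate 4) and 0.52 ± 0.09 over CA3 (adjusted p = 1.57e-05). Dlg4, the most abundant scaffold of the postsynaptic density, had means of 6.55 in CA1, 6.39 in DG and 6.26 in CA3, with no pair called. These levels were near the detection limit, though 12 of 12 arrays in each subregion detected Dlg4. Without CA1 adult replicate 4, CA1 exceeded DG by 0.01 and CA3 by 0.14 for Dlg4, again with no pair called. Dlgap1 spanned 0.23 between its highest and lowest subregion mean. Without that array CA1 exceeded CA3 by 0.38 for Dlgap1 and the difference between CA3 and DG was -0.22, both called. Dlg7, the spindle gene, was called lower in DG than in CA1 and CA3, and since 1 of 12 DG arrays detected it, no size is given for these differences.

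Sequence before the transcription start is shown for the 4 genes called in at least 2 pairs whose RefSeq window (assembly GRCr8) lay at least 150 bases outside the gene: 3 with their highest mean in DG and Dlgap4 with its highest in CA1. Each is written from 5' to 3' on the strand of its gene, and capitals mark the GC box GGGCGG or its reverse complement CCGCCC.
Grm7, forward strand, chr4:145286476-145286713: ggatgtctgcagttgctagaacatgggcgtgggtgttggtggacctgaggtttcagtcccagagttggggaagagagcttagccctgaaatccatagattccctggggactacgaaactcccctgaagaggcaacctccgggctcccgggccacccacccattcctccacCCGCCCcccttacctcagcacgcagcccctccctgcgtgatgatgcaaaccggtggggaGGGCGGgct
Grik2, reverse strand, chr20:54415284-54415533: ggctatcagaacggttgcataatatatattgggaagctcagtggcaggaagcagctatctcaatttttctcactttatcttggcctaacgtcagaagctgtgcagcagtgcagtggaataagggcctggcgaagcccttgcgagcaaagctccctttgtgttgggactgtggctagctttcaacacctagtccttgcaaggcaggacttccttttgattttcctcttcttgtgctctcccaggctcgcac
Grin1, reverse strand, chr3:28528755-28529004: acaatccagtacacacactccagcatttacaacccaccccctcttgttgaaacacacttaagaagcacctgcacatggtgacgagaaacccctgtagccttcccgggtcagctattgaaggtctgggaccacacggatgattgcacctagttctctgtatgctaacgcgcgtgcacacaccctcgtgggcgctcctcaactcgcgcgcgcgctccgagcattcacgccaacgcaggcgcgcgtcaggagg
Dlgap4, forward strand, chr3:165584110-165584270: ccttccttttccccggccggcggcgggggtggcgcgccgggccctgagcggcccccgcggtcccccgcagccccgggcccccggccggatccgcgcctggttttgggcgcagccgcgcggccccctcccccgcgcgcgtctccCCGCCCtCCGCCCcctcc
Grm7 and Dlgap4 held the motif in 2 places each, and Grik2 and Grin1 in 0. Among all 33469 rat windows the motif was present in 30.5% over the first 250 bases. Over the first 238 bases, the length of Grm7, it was present in 29.3%, and over the first 161, the length of Dlgap4, in 18.1%. Those windows were not cut at the start of each gene, so they can cover another stretch relative to it. GC content was 85.1% for Dlgap4, 61.8% for Grm7, 57.6% for Grin1 and 49.6% for Grik2. A match is a description of these letters and not of binding.

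Comparison of all aged with adult arrays asked whether transcript levels of these genes differ at 24 months. No gene was called in CA1 (0 of 21, against 0.0501% of all probes), CA3 (0 of 20, against 0.912%), DG (0 of 20, against 0.0296%) or whole hippocampus (0 of 21, against 0.309%). In CA3 aged and adult arrays were without overlap for 1 gene (2.44% of probes), and in the other regions for 0 genes (1.02% of probes in CA1, 0.276% in DG and 0.169% in whole hippocampus). At an unadjusted p under 0.05 there were 2 genes in CA3, Gria2 and Grik2, against 13.8% of all probes. There was 1 in DG, Dlg4, against 2.42%, and 0 in CA1 and whole hippocampus, against 6.07% and 5.64%. Median log2 differences of the genes were -0.030 in CA1, -0.039 in CA3, -0.045 in DG and -0.033 in whole hippocampus, where all probes had medians of 0.064, 0.002, 0.018 and -0.006.

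Gria2 in CA3 came closest. The adult values were 12.77, 12.80, 12.87 and 13.19, the aged intact values 12.52, 12.56, 12.56 and 12.69, and the aged impaired values 12.25, 12.46, 12.49 and 12.67. All 8 aged arrays lay below all 4 adult arrays. The difference was -0.38 ± 0.09 (95% interval -0.58 to -0.18), with an adjusted p of 0.0764. Without background correction the same difference had an adjusted p of 0.046, and leaving out single arrays gave 0.0616 to 0.215. In CA1, Gria2 read 13.01 to 13.30 in adults, 12.61 to 13.15 in aged intact and 12.74 to 13.20 in aged impaired rats, a difference of -0.33 ± 0.15 (adjusted p = 0.63) with overlapping groups. In DG the difference was 0.13 ± 0.12 and in whole hippocampus -0.13 ± 0.10, neither past the threshold.

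Grik2 in CA3 read 8.21, 8.25, 8.30 and 8.33 in adults, 7.95, 8.05, 8.14 and 8.21 in aged intact and 7.94, 8.02, 8.02 and 8.15 in aged impaired rats. The groups met at 8.21, and the difference of -0.21 ± 0.07 did not pass the threshold (adjusted p = 0.185). On the same CA3 arrays, where 0.912% of all probes were called, 1 of 6 astrocyte markers was called, Gfap. It rose by 0.68 ± 0.08 (list median 0.044). Of 5 microglial markers tested, C1qa, C1qb and Tyrobp rose by 0.36 to 0.51 (list median 0.38). Of 12 neuronal markers 1 was called, the synaptic vesicle gene Syn1, which fell by 0.37 ± 0.08 (list median -0.079). Summed, the 6 microglial markers reached 3050 to 3450 in adult, 4270 to 4790 in aged intact and 3950 to 4260 in aged impaired CA3 arrays, and the 12 neuronal markers 62300 to 66500, 55800 to 61700 and 60100 to 64400. Their part in the Gria2 and Grik2 values was not tested.

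**Figure D4:**
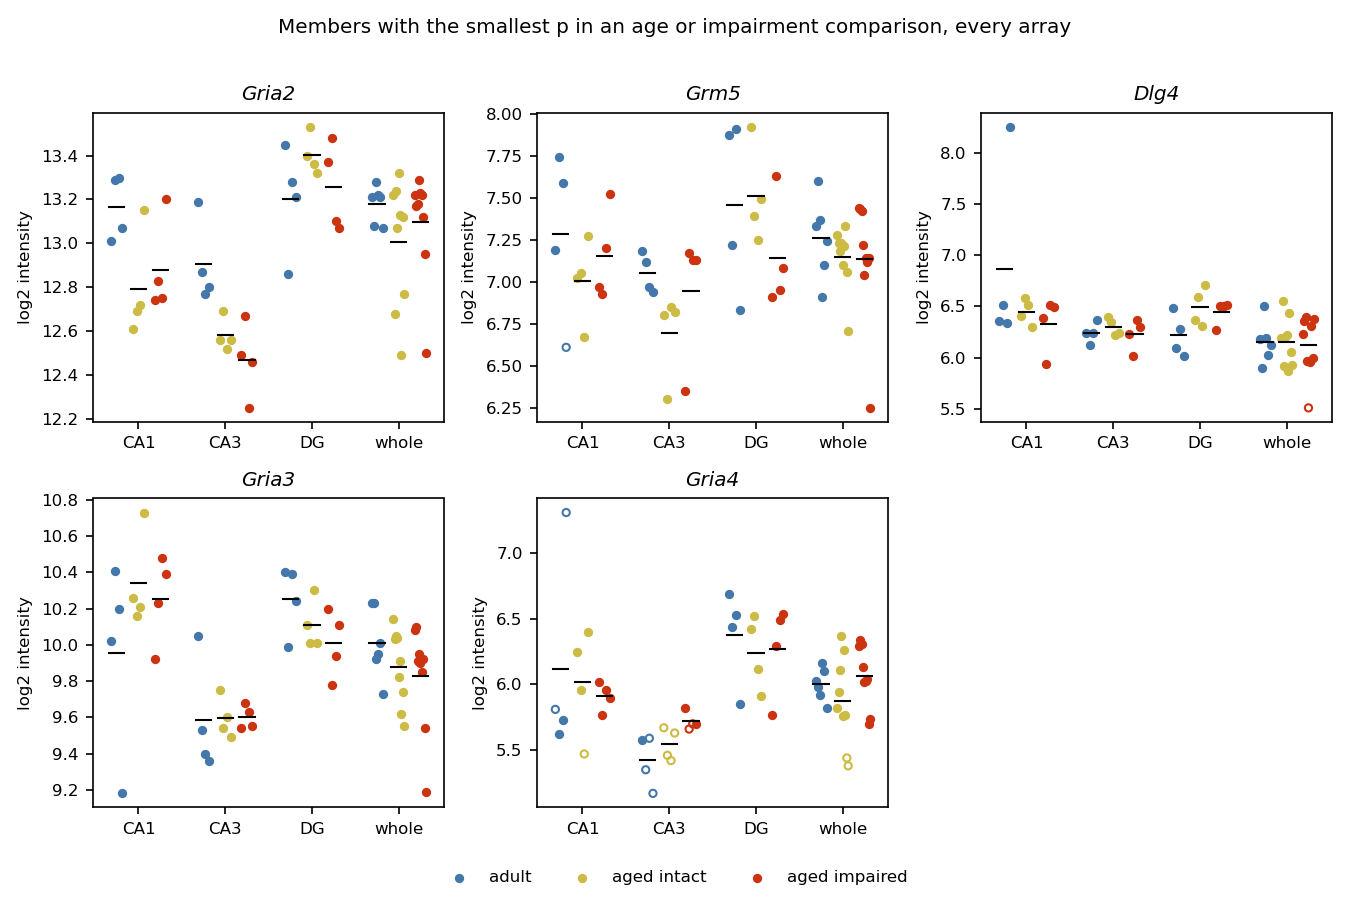
Log2 intensity of 5 genes with the smallest p in an age or impairment comparison, 1 point per array (open where not detected), by region and coloured by age group; black lines are group means. In CA3 the adult arrays of Gria2 lie at 12.77 and above and the aged arrays at 12.69 and below.

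Dlg4 in DG read 6.02, 6.09, 6.28 and 6.48 in adults, 6.31, 6.37, 6.59 and 6.71 in aged intact and 6.27, 6.50, 6.50 and 6.51 in aged impaired rats. The groups overlapped, and the difference of 0.26 ± 0.12 had an adjusted p of 1. In whole hippocampus Gria3 had the smallest p. It read 9.73 to 10.23 in 6 adult arrays (median 9.98), 9.55 to 10.14 in 9 aged intact arrays (median 9.91) and 9.19 to 10.10 in 9 aged impaired arrays (median 9.91). The difference, with slide in the fit, was -0.16 ± 0.09 (adjusted p = 0.948), and within the separate slides it was -0.12 and -0.21. With the replicate number as a block it was -0.02.

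In whole hippocampus 17 of 21 genes lay below 0 in aged against adult rats, where 47.7% of all probes lay above 0. That count was 17 within 1 of the slides and 9 within the other.

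Without CA1 adult replicate 4, the age comparison in CA1 still called 0 of 21 genes, against 0.11% of probes, and 6 genes reached an unadjusted p under 0.05. For those 6 no share of all probes is given, so the count has nothing to be set against. Dlgap1 differed by -0.33 ± 0.11 (adjusted p = 0.178), Grm5 by -0.42, Gria2 by -0.36, Homer2 by -0.41, Dlgap3 by -0.57 and Shank1 by 0.43. With that array kept, Shank1 differed by -0.26, Homer2 by 0.25 and Dlgap1 by 0.12, opposite in sign to the values without it.

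Aged impaired against aged intact rats addressed whether the aged groups differ from each other. No gene was called in any region (0 of 20 genes in CA3 and DG, 0 of 21 in CA1 and whole hippocampus), and neither was any other probe (0%). In CA1 the median standard error of the genes was 0.347 with CA1 adult replicate 4 and 0.146 without it. Without it 0 of 21 genes and 0% of probes were again called. The groups overlapped for every gene, while 3.29% of probes did not overlap in CA1, 3.77% in CA3, 1.55% in DG and 0% in whole hippocampus. Only Shank1 in DG reached an unadjusted p under 0.05, where 1.93% of all probes did. The shares of probes were 0.331% in CA1, 5.06% in CA3 and 5.84% in whole hippocampus. Shank1 read 6.58, 6.58, 6.72 and 7.10 in aged intact and 6.59, 7.49, 7.63 and 8.08 in aged impaired DG arrays. The 3 highest impaired arrays lay above all intact arrays and the lowest lay among them. Shank1 was higher in impaired rats by 0.70 ± 0.27 (95% interval 0.13 to 1.28; adjusted p = 0.894), and adult DG arrays read 6.94 to 7.66.

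Grin2c had the smallest p in CA1, at 8.62, 8.67, 8.75 and 8.92 in intact and 8.25, 8.52, 8.52 and 8.65 in impaired rats. The difference was -0.25 ± 0.16 (adjusted p = 1), or -0.25 ± 0.12 without CA1 adult replicate 4 (adjusted p = 0.841). In CA3 Grm5 had the smallest p, at 6.30, 6.80, 6.82 and 6.85 against 6.35, 7.13, 7.13 and 7.17, a difference of 0.25 ± 0.17 (adjusted p = 0.976). It was 0.12 without CA3 aged intact replicate 2 and 0.45 without CA3 aged impaired replicate 1. In each of the 2 genes 1 impaired array lay within the intact range. Gria4 had it in whole hippocampus, at 5.38 to 6.37 in 9 intact arrays (median 5.82) and 5.70 to 6.34 in 9 impaired arrays (median 6.04), a difference of 0.22 ± 0.11 (adjusted p = 0.642). Within the separate slides the Gria4 difference was 0.27 and 0.19.

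**Figure D5:**
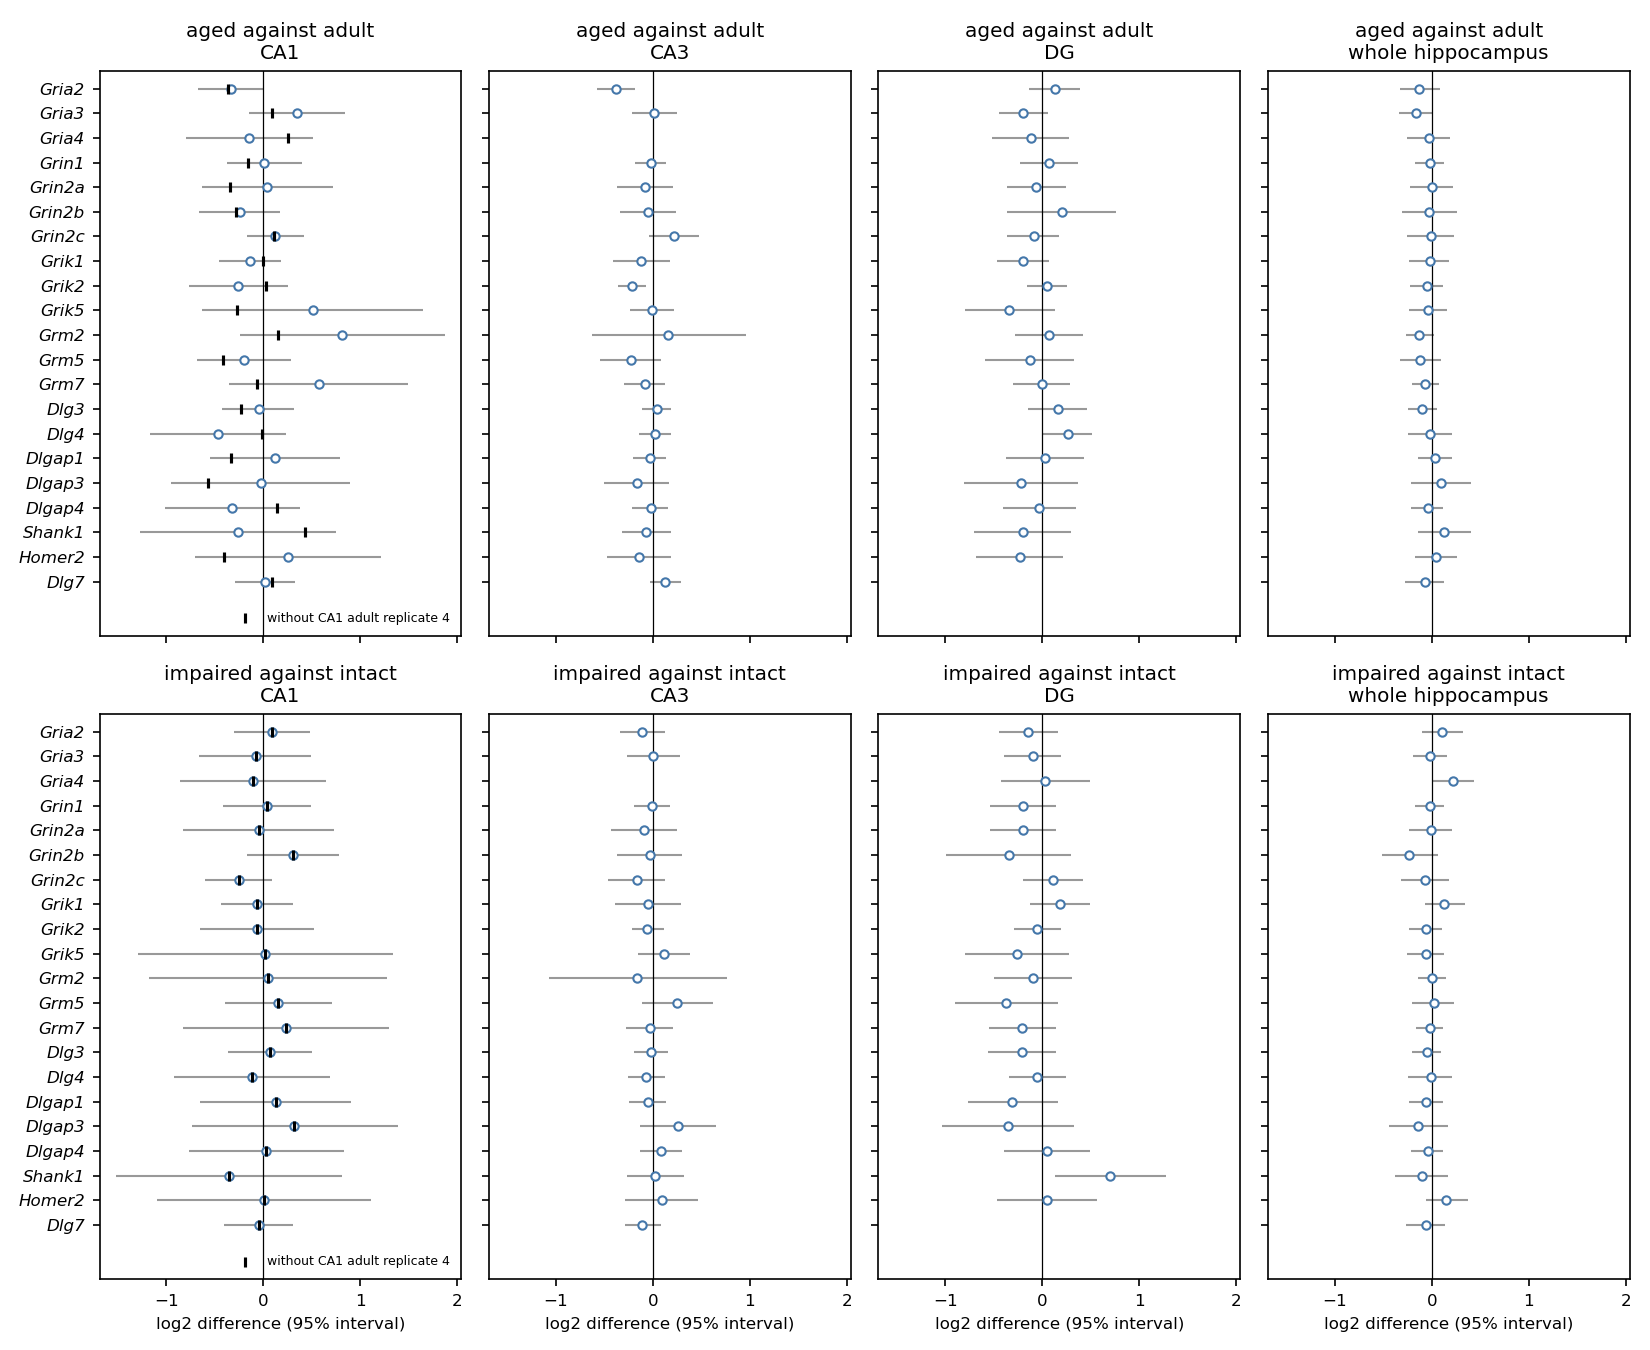
Log2 difference with its 95% interval for aged against adult rats (upper row) and aged impaired against aged intact rats (lower row), by gene and region; black ticks in CA1 give the value without CA1 adult replicate 4, and genes that missed the detection limit of a region have no point. No gene passed an adjusted p of 0.05 in any panel; Gria2 in CA3 lies at -0.38 and Shank1 in DG at 0.70.

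Whether age or impairment differences were unequal between the subregions was tested with 1 fit of the 36 subregion arrays. For age 0 of 21 genes were called, against 0.00939% of probes, and for impairment 0 of 21, against 0%. Without CA1 adult replicate 4 the counts were again 0, against 0.0188% and 0% of probes. Gria2 had an adjusted p of 0.661 in the test for age, where CA1 differed by -0.33, CA3 by -0.38 and DG by 0.13.

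Whole hippocampus mostly lay within the range of the subregion means: 12 of 21 genes were inside, 4 above all 3 means and 5 below, while 59.8% of all probes were outside. The largest distances were 0.95 above for Dlgap3 (7.89 against 6.48 to 6.94), 0.90 above for Dlgap1 (10.82 against 9.69 to 9.93) and 0.69 below for Shank1 (6.47 against 7.16 to 8.15). These regions were run on different slides, and the distances were not tested.

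Partner genes of the receptors were examined in the same fits. Of 23 genes for AMPA and kainate receptor auxiliary and trafficking proteins, 16 had a probe and 13 to 15 were tested. Grip1, a PDZ scaffold that binds the Gria2 tail, fell by 0.35 ± 0.07 with age in CA3 (adjusted p = 0.0411), and no other of them was called for age or impairment. Of 40 other postsynaptic density genes, 35 had a probe, 27 to 29 were tested and 0 were called for age or impairment; Magi3 in CA3 came closest at -0.30 ± 0.08 (adjusted p = 0.0994).

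Between subregions the auxiliary genes were called in 6 of 15 cases for CA1 against CA3, 10 for CA1 against DG and 5 for CA3 against DG, where the shares of all probes were 30%, 44.9% and 39.9%. The counts without CA1 adult replicate 4 were 10, 13 and 6, against 43.7%, 54.9% and 59.1% of probes. Neto1, an auxiliary subunit of kainate receptors, was higher in CA3 than in CA1 by 1.96 ± 0.11 (adjusted p = 1.21e-14; 1.92 without CA1 adult replicate 4) and higher than in DG by 1.07 ± 0.11. Neto2, the other such subunit, was higher in CA1 than in DG by 0.97 ± 0.19, or by 1.17 without that array. Grip2 exceeded DG by 1.82 ± 0.22 in CA1, or by 1.61 without it, and by 1.44 ± 0.22 in CA3. The other postsynaptic density genes were called in 9, 14 and 15 of 29 cases in the same 3 pairs, against 30%, 44.9% and 39.9% of probes, and in 13, 15 and 18 without that array. Tanc1, a scaffold that binds Dlg4, was higher in DG than in CA1 by 2.00 ± 0.18 (1.83 without that array), and Kalrn, a guanine nucleotide exchange factor of dendritic spines, was higher in DG than in CA3 by 0.97 ± 0.10.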

How the data were processed

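RNA was labelled with biotin for Illumina arrays, per the labels' protocols. The deposited table gave, per the file headers, an intensity (mean bead signal, without normalization) and a detection p-value for 22523 probes on each of 60 arrays. A table of the authors' processed intensity values was also deposited, with its normalization not given in the sources used here. Intensities were background-corrected, quantile normalized and taken to log2 with neqc (limma 3.58.1, R 4.3.3; offset 16). Moderated tests (lmFit, eBayes; two-sided, Benjamini-Hochberg adjustment) ran over all probes with detection p under 0.01 on 4 or more arrays of the region, with the slide as a term in whole hippocampus, and were tested on simulated data. Subregions and unequal differences came from 1 fit of 36 arrays. Per-array values are given for the gene with the smallest p in each age and impairment comparison and for the 8 genes with the largest subregion gaps; Grik2 in CA3 and the examples on CA1 adult replicate 4 were added after their values were seen. Some genes that match the names are not reported here and enter no count of members. Members, partner lists and marker lists were chosen with earlier results of these data known. RefSeq (GRCr8) symbols updated the array's names. The number of arrays limits the precision. Alternatives covered background, normalization, filter, slide, replicate block and left-out arrays.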

Additional observations from a re-analysis of the deposited data

Results flagged for a closer look

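Within 246 groups of 4, 6 or 9 arrays (1 gene, region and age group each), 20 single arrays lay far from the rest of their group by the 95% critical value of Dixon's test, which by its definition sets about 1 in 20 groups apart by chance. CA1 adult replicate 4 gave 5 of them: it was high for Dlg4 (8.25 against 6.34 to 6.51 on the other adult CA1 arrays), Gria4 (7.31 against 5.62 to 5.81) and Grik2 (8.99 against 7.80 to 7.91), and low for Grm2 (4.79 against 7.26 to 7.57) and Grm7 (5.02 against 7.44 to 7.73).

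In the other subregion groups, Grin2b was high on CA1 adult replicate 2 (9.65 against 9.11 to 9.16) and Grm2 on CA3 adult replicate 1 (6.93 against 4.85 to 5.14). Grm5 was low on CA3 aged intact replicate 2 (6.30) and CA3 aged impaired replicate 1 (6.35), where Grm7 was low too (7.79). In DG, Dlg3 was low on aged intact replicate 3 (9.45), Dlg4 low on aged impaired replicate 1 (6.27) and Grin2c high on adult replicate 4 (8.43).

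In whole hippocampus, aged impaired replicate 9 was low for Gria2 (12.50 against 12.95 to 13.29), Grin2a (9.19 against 9.73 to 10.06) and Grm5 (6.25 against 7.04 to 7.44). Aged intact replicate 2 was high for Dlgap1 (11.45) and Grik2 (8.83), aged intact replicate 9 low for Grm5 (6.71), and aged impaired replicate 5 low for Dlg4 (5.51). No cause was tested for any of these arrays.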

How the results depend on the processing

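For 32 differences (the genes with the smallest p for age or impairment, and 3 pairs of subregions for the 8 genes with the largest gaps), none changed sign under any alternative run. Age differences in CA1 of several genes that are not among them changed sign without CA1 adult replicate 4. These included Shank1, Homer2, Dlgap1, Grik5, Grm7, Grik2, Gria4, Dlgap4 and Grin2a. Counts of called genes in the 13 comparisons stayed within 1.5 times the reported count except in 3 cases. Without background correction, 1 gene (Gria2) was called for age in CA3 instead of 0. Without CA1 adult replicate 4, 16 genes were called between CA1 and CA3 instead of 10, and leaving out each of the 36 subregion arrays gave 10 to 16. With detection required on every array, 8 of 13 remaining genes were called between CA1 and DG instead of 13, where fewer genes were tested. With the authors' processed values, the Grik1 difference between CA3 and DG was 0.20 and lost its call (adjusted p = 0.137), as did the Grin2c difference between them, at -0.36 (adjusted p = 0.0506); the cause was not tested. The same values moved the median of all probes for age in CA1 by 0.186. Leaving out single arrays gave 0 called genes in every age and impairment comparison, 13 to 14 between CA1 and DG and 11 to 18 between CA3 and DG. Within a region, deviations of same-numbered arrays were compared only between age groups, and so between different rats. Their median correlations were -0.056 in CA1, 0.065 in CA3, -0.166 in DG and 0.146 in whole hippocampus (12 of 21 pairs over 0.1). For other numbers the medians were 0.012, -0.091, 0.028 and -0.012 (63 of 168 pairs over 0.1 in whole hippocampus). Across subregions within an age group the median was 0.114 (20 of 36 pairs over 0.1), against -0.018 for other numbers (35 of 108). Same-numbered pairs across subregions ran from -0.579 to 0.477. Such a spread cannot decide whether equal numbers mark the same rat, and the arrays were not treated as paired. With the replicate number as a block, counts for the subregions were again 10, 13 and 13, and 0 for age and impairment; the age difference of Gria3 in whole hippocampus moved from -0.16 to -0.02. The block was the replicate number alone, so a pairing of CA1, CA3 and DG by rat was not tested.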
